A study of Arabidopsis thaliana with 12 samples.

Results

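The 39 genes described here encode the cytosolic 60S ribosomal proteins of 16 families, from RPL24 to RPL40, in Arabidopsis thaliana. They were chosen by gene identity out of the 33602 genes counted. The libraries hold polyadenylated RNA from shoots of Col-0 seedlings, an Arabidopsis wild-type strain. Seedlings were 4 days old after germination and had grown upright in continuous light. They then spent 8 h on fresh plates with DMSO, the solvent (mock), or with an active-site inhibitor of the TOR kinase, and the series asks which shoot genes respond early. The inhibitors were AZD8055 at 2 µM, KU63794 at 20 µM and TORIN1 at 10 µM, so that doses differ between compounds while the time is the same. The sample names write KU63794 and the treatment text writes KU63749; the sample names are followed here. Each of the 4 groups has 3 libraries of 7706957 to 14696645 counts, and all of them are whole shoots of 1 wild-type strain in which TOR was inhibited by a compound, not by mutation. Nothing in the labels says whether libraries of a group came from separate plates, and p-values then cover only the spread between the libraries at hand.

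The large ribosomal subunit joins amino acids into protein, and its proteins fold onto ribosomal RNA in the nucleolus before the subunit is finished in the cytoplasm. In Arabidopsis nearly every ribosomal protein is made from several near-identical genes, called paralogs. TOR is a protein kinase that couples nutrients and energy to growth, and the making of ribosomes is among the processes it is best known for promoting. Promoters of plant ribosomal protein genes are known for short motifs shared with other growth genes, the telo box and the site II element, which TCP transcription factors bind.

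The sequence before the gene start is shown for 5 genes on which the results below turn. They are the member with the highest level (AT3G60245), a member with 5 site II motifs (STV1), a pair of RPL34 paralogs whose shares in mock and inhibitor libraries did not overlap (AT1G69620 and AT1G26880) and the RPL40 gene UBQ1, with 1 of the 5 smallest changes. Each run is the 250 bases before the RefSeq gene start in TAIR10.1, read 5′ to 3′ on the strand of the gene, with site II motifs on either strand in capitals. No telo box lies in these 5 runs.
AT3G60245 (RPL37a; chr3:22268438-22268687, plus strand): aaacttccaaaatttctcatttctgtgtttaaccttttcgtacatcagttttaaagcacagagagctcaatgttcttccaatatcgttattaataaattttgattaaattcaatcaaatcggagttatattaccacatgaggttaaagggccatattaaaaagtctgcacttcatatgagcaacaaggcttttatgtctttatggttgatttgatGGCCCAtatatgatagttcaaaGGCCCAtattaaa
STV1 (AT3G53020, RPL24; chr3:19662026-19662275, minus strand): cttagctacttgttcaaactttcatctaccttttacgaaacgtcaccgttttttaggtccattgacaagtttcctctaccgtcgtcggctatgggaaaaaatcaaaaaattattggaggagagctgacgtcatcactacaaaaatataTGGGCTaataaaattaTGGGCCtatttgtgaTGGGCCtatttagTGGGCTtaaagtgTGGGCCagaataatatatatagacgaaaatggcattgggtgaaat
AT1G69620 (RPL34; chr1:26189525-26189774, plus strand): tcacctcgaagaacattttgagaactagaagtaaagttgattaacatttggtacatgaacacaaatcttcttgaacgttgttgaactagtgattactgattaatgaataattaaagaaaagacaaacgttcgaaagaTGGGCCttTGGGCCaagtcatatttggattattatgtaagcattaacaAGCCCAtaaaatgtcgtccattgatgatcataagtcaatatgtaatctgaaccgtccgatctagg
AT1G26880 (RPL34; chr1:9318278-9318527, minus strand): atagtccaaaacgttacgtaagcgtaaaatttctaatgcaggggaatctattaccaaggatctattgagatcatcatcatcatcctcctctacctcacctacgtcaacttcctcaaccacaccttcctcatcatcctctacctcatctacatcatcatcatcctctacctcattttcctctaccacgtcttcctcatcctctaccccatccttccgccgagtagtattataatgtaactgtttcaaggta
UBQ1 (AT3G52590, RPL40; chr3:19505129-19505378, plus strand): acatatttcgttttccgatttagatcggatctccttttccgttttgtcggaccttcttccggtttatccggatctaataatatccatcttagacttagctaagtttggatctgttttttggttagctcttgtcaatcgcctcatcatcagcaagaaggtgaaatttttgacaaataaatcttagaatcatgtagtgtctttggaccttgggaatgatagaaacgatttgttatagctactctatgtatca

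The motifs searched were AAACCCTA for the telo box and TGGGCC or TGGGCT for site II, on both strands of a window of 300 bases, from 250 before to 50 after the gene start. The site II words can overlap one another. Overlapping matches on opposite strands were each counted as a separate motif, as at 36 and 34 bases before the start of AT5G02450. Such a stretch alone can therefore make at least 2 motifs. Of the 39 genes, 29 (74.4%) held a site II motif and 26 held at least 2, against 21.7% and 13.7% of 27443 protein-coding nuclear genes. A telo box lay in 14 of the 39 (35.9%), against 6.22% of all genes. Both motifs stood in 11 (28.2%, against 2.2%), and 7 (17.9%) held neither, against 74.3%. STV1 held 5 site II motifs and a telo box that begins 33 bases after the start. The 68 genes of other 60S families held site II in 85.3% and the telo box in 54.4%. The 26 tested members with at least 2 site II motifs had medians of -1.26 (AZD8055), -1.29 (KU63794) and -0.82 (TORIN1) for the log2 fold change, and the 12 with fewer had -1.28, -1.37 and -0.74, a difference that was not tested. A match is a description of letters and does not show that a factor binds there, and a window without one says only that these letters are not in it.

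**Figure D1:**
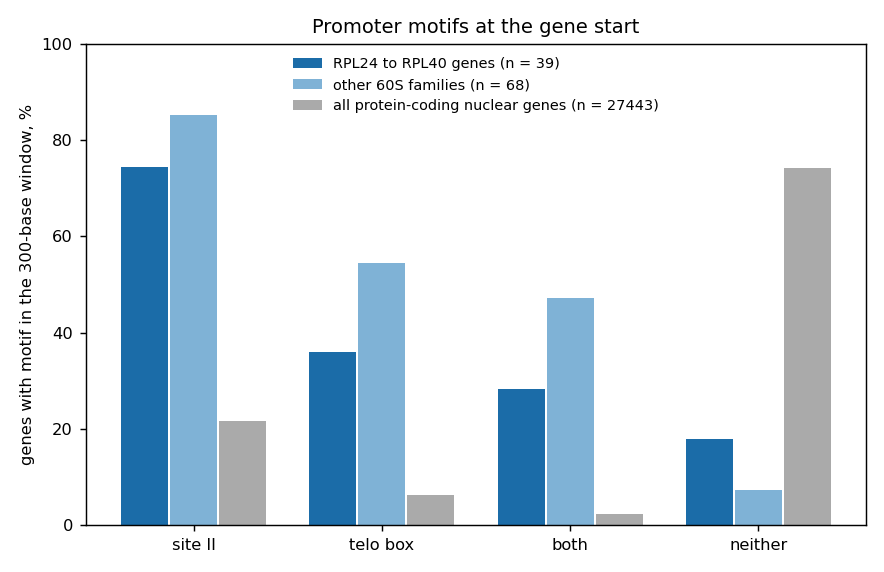
Share of genes (y axis, percent) with a site II motif, a telo box, both or neither (x axis) in the 300-base window at the gene start, for the RPL24 to RPL40 genes, the other 60S families and all protein-coding nuclear genes. Site II stands in 74.4% of the 39 genes and in 21.7% of all genes.

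All 38 members with any count had a negative log2 fold change with every inhibitor, and 32 of them fell with all 3. Together the members held 0.723 ± 0.035% of all counts in mock (mean ± SD, n = 3), 0.323 ± 0.0648% with AZD8055, 0.326 ± 0.0312% with KU63794 and 0.409 ± 0.0308% with TORIN1. Levels are counts scaled to a common library size (CPM, after TMM adjustment of the library totals) and a gene was called at a Benjamini-Hochberg adjusted p below 0.05 over the 17933 genes tested. In bulk shoots, fewer cells of a type and less RNA per cell cannot be told apart. AT3G10950, the other RPL37a gene, had 0 counts in each of the 12 libraries, where 3 counts in a library, the limit that a count of 0 allows, correspond to 0.205 to 0.391 CPM (counting error only), and was not tested.

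With AZD8055 35 of the 38 tested members fell (92.1%), with KU63794 34 (89.5%) and with TORIN1 32 (84.2%); over all genes tested 16.1%, 14.3% and 10.3% were called lower. The 32 called with all 3 inhibitors compare with 7.33% of all genes. In edgeR, DESeq2 and limma voom 0 members had a positive log2 fold change. Thus 0 were higher at an unadjusted p under 0.05 as well. At the stricter edgeR adjusted p below 0.05, 14.4%, 11.1% and 9.87% of all genes were called higher. Median log2 fold changes of the members were -1.27, -1.29 and -0.79 with AZD8055, KU63794 and TORIN1, beside 0.00, 0.01 and -0.01 over all genes tested. Called falls of at least 2-fold were seen for 29 members with AZD8055, 29 with KU63794 and 2 with TORIN1, at doses that differ, against 4.62%, 3.81% and 2.01% of all genes tested. The comparisons share their mock libraries.

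In 35 members all 9 inhibitor libraries lay below the lowest mock library, which was so for 13% of all genes tested. For single inhibitors the libraries lay below all mock libraries in 35 members with AZD8055, 37 with KU63794 and 38 with TORIN1, against 22.8%, 23.3% and 21.6% of all genes. The median over members of the log2 level against the mock mean was -1, -1.20 and -1.61 in AZD8055 replicates 1 to 3, -1.25, -1.52 and -1.16 with KU63794 and -0.81, -0.70 and -0.83 with TORIN1. Of the AZD8055 libraries replicate 1 stood nearest to mock, and replicate 3 was the lowest of all 9 inhibitor libraries.

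**Figure D2:**
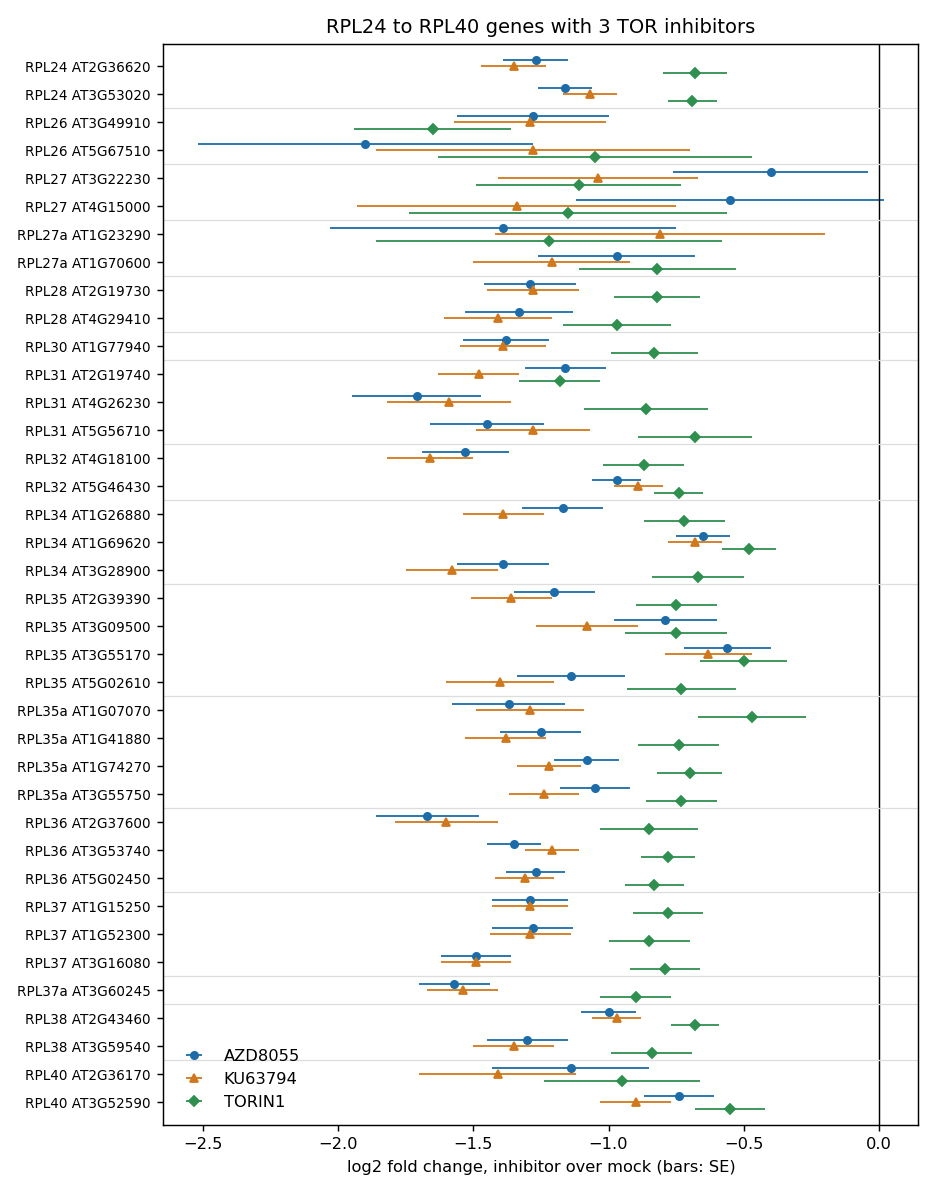
Log2 fold change of inhibitor over mock (x axis, with its SE as a bar) for the 38 tested genes (y axis, grouped by family), with 1 symbol per inhibitor. Every symbol lies left of 0, and the widest bars, with SE of 0.57 to 0.64, belong to AT5G67510 (RPL26), AT4G15000 (RPL27) and AT1G23290 (RPL27a).

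Levels differed widely between members. Per kb of transcript, mean mock levels ran from 2.39 to 1430 CPM, a ratio of 598.0. The log2 fold changes had an SD over members of 0.33 with AZD8055, 0.25 with KU63794 and 0.22 with TORIN1. Across the 38 members the mock level (log2 CPM per kb) and the mean log2 fold change over the inhibitors had a Spearman rho of 0.24 and a Pearson r of 0.23, a description in which both axes use the same mock libraries. Summed by family, levels under AZD8055 lay between 33.7% of mock (RPL37a) and 70.5% (RPL27), under KU63794 between 34.3% (RPL37a) and 51.3% (RPL34), and under TORIN1 between 34.4% (RPL26) and 67.4% (RPL34).

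The highest level per kb belonged to AT3G60245 (chromosome 3, 22268688 to 22270028, plus strand), which encodes RPL37a, a zinc-binding protein of the large subunit. It had 1020, 953 and 913 CPM in mock replicates 1 to 3, 336, 364 and 273 under AZD8055, 341, 269 and 381 under KU63794 and 507, 537 and 509 under TORIN1. Every inhibitor library lay far below the lowest mock library. The gene had log2 fold changes of -1.57 (AZD8055), -1.54 (KU63794) and -0.90 (TORIN1), with SE 0.13, 0.13 and 0.13 and edgeR adjusted p = 2.53e-06, 3.89e-06 and 0.000437. Its 2 site II motifs lie 35 and 13 bases before the gene start, as printed above. AT1G52300 (chromosome 1, 19474898 to 19476234, minus strand) has the highest level per kb of the RPL37 genes, another zinc-binding family. It had 416, 406 and 407 CPM in mock replicates 1 to 3, 212, 172 and 122 under AZD8055, 181, 152 and 171 under KU63794 and 235, 226 and 221 under TORIN1. The groups did not overlap. The fit gave log2 fold changes of -1.28 (AZD8055), -1.29 (KU63794) and -0.85 (TORIN1), with SE 0.15, 0.15 and 0.15 and edgeR adjusted p = 2.15e-05, 2.56e-05 and 0.00126. The other RPL37 genes, AT3G16080 and AT1G15250, had log2 fold changes of -1.49 and -1.29 (AZD8055), -1.49 and -1.29 (KU63794) and -0.79 and -0.78 (TORIN1), and each of these passed the test.

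RPL40 is made as a fusion with ubiquitin, from which it is cut, and both of its genes fell. UBQ1 (AT3G52590; chromosome 3, 19505379 to 19506932, plus strand) had 823, 804 and 791 CPM in mock replicates 1 to 3, 601, 451 and 395 under AZD8055, 434, 419 and 444 under KU63794 and 546, 553 and 553 under TORIN1. Every inhibitor library lay below mock, with AZD8055 replicate 1 the highest of the 9. This amounted to log2 fold changes of -0.74 (AZD8055), -0.90 (KU63794) and -0.55 (TORIN1), with SE 0.13, 0.13 and 0.13 and edgeR adjusted p = 0.000475, 0.000124 and 0.00669, among the 5 smallest mean changes of the tested members. UBQ1 overlaps 2 other annotated genes, AT3G52600 and AT3G08275, and the strandedness of the counting is not given. In all, 11 members overlap another annotated gene, among them RPL24A, AT4G26230, AT4G29410, AT1G15250, AT5G67510 and RPL27AB. The part of such overlaps in the counts was not tested. AT2G36170, the other RPL40 gene, had log2 fold changes of -1.14 (AZD8055), -1.41 (KU63794) and -0.95 (TORIN1), with SE 0.29, 0.29 and 0.29 and edgeR adjusted p = 0.0144, 0.00574 and 0.0441. In AZD8055 replicate 1 it stood at 154 CPM, against 72.4 and 55 in replicates 2 and 3. Leaving out any 1 of the 6 libraries of the TORIN1 comparison ended the TORIN1 call of AT2G36170, as did testing without the low-count filter, and its AZD8055 call was lost when only the 2 groups were fitted.

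RPL24 lies where the subunits meet and its genes RPL24A and STV1 both fell with all 3 inhibitors. STV1, known from plants that fail to restart translation after short upstream reading frames, is at chromosome 3, 19660488 to 19662025, minus strand. It had 427, 425 and 400 CPM in mock replicates 1 to 3, 200, 198 and 162 under AZD8055, 198, 192 and 206 under KU63794 and 252, 257 and 268 under TORIN1. Mock and inhibitor libraries stood well apart and the replicates of each group close together. It had log2 fold changes of -1.16 (AZD8055), -1.07 (KU63794) and -0.69 (TORIN1), with SE 0.10, 0.10 and 0.09 and edgeR adjusted p = 2.46e-06, 4.39e-06 and 0.000281. RPL24A (AT2G36620) had log2 fold changes of -1.27 (AZD8055), -1.35 (KU63794) and -0.68 (TORIN1), with SE 0.12, 0.12 and 0.12 and edgeR adjusted p = 3.57e-06, 3.89e-06 and 0.00105. RPL30, also at the subunit interface, is represented among the members by AT1G77940. This gene had 166 ± 4.26 CPM in mock and, under AZD8055, KU63794 and TORIN1 in turn, 63.9 ± 18.2, 63.4 ± 7.18 and 93.3 ± 3.65 (SD, n = 3). Its log2 fold changes of -1.38, -1.39 and -0.83 each passed the test.

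RPL26, RPL31 and RPL35 lie around the exit of the tunnel through which the new protein leaves the ribosome. Among them stood both the largest and the smallest changes. AT3G49910 (RPL26; chromosome 3, 18504164 to 18505390, plus strand) had 10.7, 14 and 11.1 CPM in mock replicates 1 to 3, 6.67, 4.94 and 3.09 under AZD8055, 6.25, 2.82 and 5.55 under KU63794 and 3.3, 4.53 and 3.58 under TORIN1. All inhibitor libraries were lower than mock at these low levels. Against mock it had log2 fold changes of -1.28 (AZD8055), -1.29 (KU63794) and -1.65 (TORIN1), with SE 0.28, 0.28 and 0.29 and edgeR adjusted p = 0.0037, 0.00392 and 0.00156. AT5G67510 (RPL26; chromosome 5, 26937621 to 26938498, minus strand), the tested member with the lowest level per kb, had 1.98, 1.71 and 2.6 CPM in mock replicates 1 to 3, 0.26, 1.18 and 0.258 under AZD8055, 1.48, 0.235 and 0.829 under KU63794 and 0.68, 1.36 and 0.991 under TORIN1. These levels rest on 18 to 29 counts per mock library and on 3 to 19 per inhibitor library, and 3 inhibitor libraries held 3 counts. The gene had log2 fold changes of -1.90 (AZD8055), -1.28 (KU63794) and -1.05 (TORIN1), with SE 0.62, 0.58 and 0.58 and edgeR adjusted p = 0.0316, 0.124 and 0.231. It was called with AZD8055 and missed the threshold with the other inhibitors, although limma voom passed with KU63794 (adjusted p = 0.0476) and edgeR on only the 2 groups compared with TORIN1 (0.0468). Its call with AZD8055 ended without mock replicate 1, 2 or 3 (edgeR adjusted p = 0.0709, 0.0565 and 0.0942) and without AZD8055 replicate 1 or 3 (0.104 and 0.113). Without AZD8055 replicate 2 the log2 fold change was -2.95. AT5G67510, with its few counts, overlaps AT5G67500 in the annotation.

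AT4G26230 (RPL31; chromosome 4, 13285737 to 13286791, plus strand) had 99.7, 106 and 90.9 CPM in mock replicates 1 to 3, 21.5, 38.3 and 31 under AZD8055, 28.1, 24.7 and 45.6 under KU63794 and 52.6, 63.3 and 48.6 under TORIN1. No inhibitor library reached the mock range. The fit gave log2 fold changes of -1.71 (AZD8055), -1.59 (KU63794) and -0.86 (TORIN1), with SE 0.24, 0.23 and 0.23 and edgeR adjusted p = 0.000228, 0.00043 and 0.0216. Its TORIN1 call was lost without mock replicate 1 or 2 (edgeR adjusted p = 0.0592 and 0.0699) or TORIN1 replicate 1 or 3 (0.0638 and 0.0862). The other RPL31 genes also fell with each inhibitor. AT5G56710 had log2 fold changes of -1.45, -1.28 and -0.68 and AT2G19740 of -1.16, -1.48 and -1.18 with AZD8055, KU63794 and TORIN1. The TORIN1 call of AT5G56710 was lost when any 1 of the 6 libraries of its comparison was left out, and without the low-count filter.

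Of the 4 RPL35 genes, AT3G09500 has the highest level per kb and AT3G55170 the lowest. AT3G09500 (chromosome 3, 2916922 to 2918247, plus strand) had 361, 344 and 355 CPM in mock replicates 1 to 3, 290, 181 and 140 under AZD8055, 174, 160 and 166 under KU63794 and 212, 219 and 197 under TORIN1. AZD8055 replicate 1 was the highest of the inhibitor libraries and still below mock. This amounted to log2 fold changes of -0.79 (AZD8055), -1.08 (KU63794) and -0.75 (TORIN1), with SE 0.19, 0.19 and 0.19 and edgeR adjusted p = 0.00626, 0.000999 and 0.0132, and its TORIN1 call was lost without TORIN1 replicate 3 (edgeR adjusted p = 0.0589). AT3G55170 (chromosome 3, 20452910 to 20454530, minus strand) had 34.1, 36.3 and 38.7 CPM in mock replicates 1 to 3, 32.4, 19.9 and 21.3 under AZD8055, 26.9, 20.4 and 23.1 under KU63794 and 25.8, 26.1 and 25.1 under TORIN1. Mock and inhibitor libraries came close, 34.1 CPM against 32.4 in AZD8055 replicate 1, without overlap. Against mock it had log2 fold changes of -0.56 (AZD8055), -0.63 (KU63794) and -0.50 (TORIN1), with SE 0.16, 0.16 and 0.16 and edgeR adjusted p = 0.0138, 0.00829 and 0.0357, the smallest mean change of all tested members. Its TORIN1 call was lost when any 1 of the 6 libraries of that comparison was left out (edgeR adjusted p = 0.0624 to 0.11), and its AZD8055 call without mock replicate 3 (0.0504) or AZD8055 replicate 2 or 3 (0.0589 and 0.0587). AT2G39390 and AT5G02610 had log2 fold changes of -1.20 and -1.14 (AZD8055), -1.36 and -1.40 (KU63794) and -0.75 and -0.73 (TORIN1), all past the test, with the TORIN1 call of AT5G02610 lost without mock replicate 2 or 3 or TORIN1 replicate 1 or 3.

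**Figure D3:**
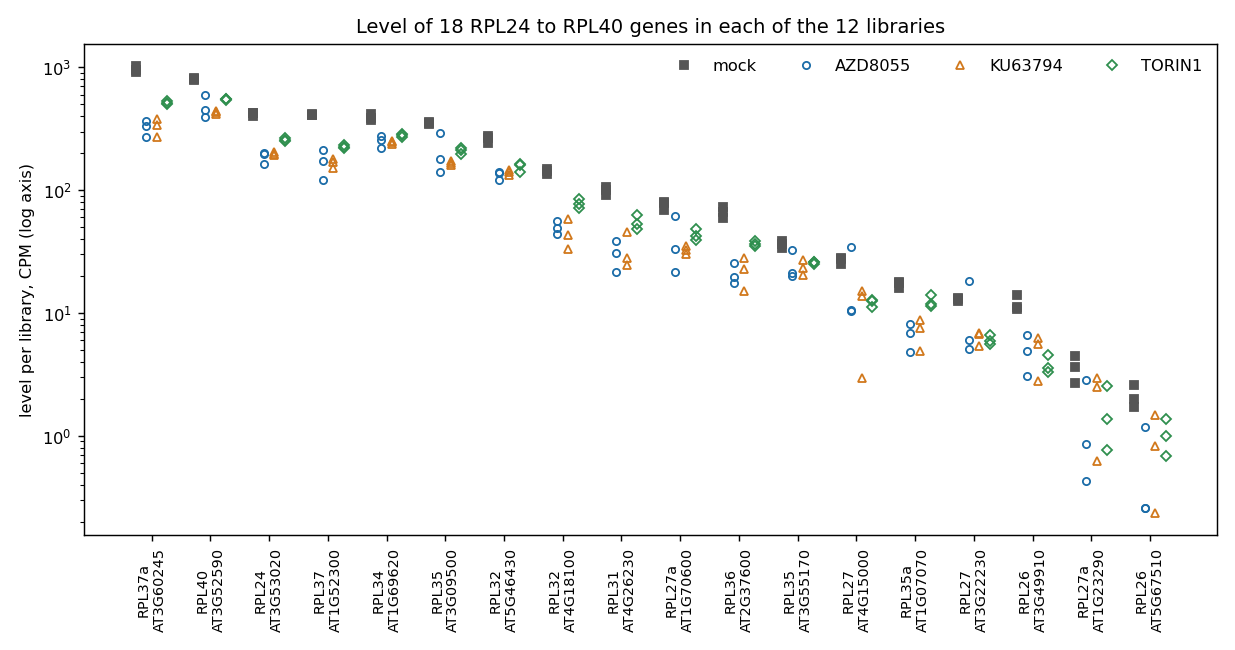
Level in CPM (y axis, log) of 18 genes (x axis, ordered by mean mock CPM, not divided by length) in each of the 12 libraries, with 1 symbol per library and a colour per group. Mock libraries lie above all inhibitor libraries in 15 of the 18, and AT4G15000, AT3G22230 and AT1G23290 overlap.

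Among the remaining families, falls were called for every gene of RPL28, RPL32, RPL34, RPL36 and RPL38 with all 3 inhibitors. AT2G37600 (RPL36; chromosome 2, 15774030 to 15775374, minus strand) had 73, 66.2 and 59.7 CPM in mock replicates 1 to 3, 17.5, 25.6 and 19.6 under AZD8055, 22.8, 15 and 28.2 under KU63794 and 36.6, 38.4 and 35.4 under TORIN1. Mock and inhibitor libraries did not overlap. The gene had log2 fold changes of -1.67 (AZD8055), -1.60 (KU63794) and -0.85 (TORIN1), with SE 0.19, 0.19 and 0.18 and edgeR adjusted p = 2.61e-05, 4.26e-05 and 0.00531. The other RPL36 genes, AT3G53740 and AT5G02450, had log2 fold changes of -1.35 and -1.27 (AZD8055), -1.21 and -1.31 (KU63794) and -0.78 and -0.83 (TORIN1).

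The RPL32 pair held a large and a small change. AT4G18100 (chromosome 4, 10035468 to 10036647, minus strand) had 148, 143 and 136 CPM in mock replicates 1 to 3, 48.8, 55.8 and 43.6 under AZD8055, 43.4, 33.4 and 58.2 under KU63794 and 77.5, 84.9 and 72 under TORIN1. AT5G46430 (chromosome 5, 18833240 to 18834632, plus strand) had 275, 264 and 242 CPM in mock replicates 1 to 3, 122, 137 and 140 under AZD8055, 142, 134 and 146 under KU63794 and 164, 161 and 142 under TORIN1. In neither gene did an inhibitor library reach mock. AT4G18100 had log2 fold changes of -1.53 (AZD8055), -1.66 (KU63794) and -0.87 (TORIN1), with SE 0.16, 0.16 and 0.15 and edgeR adjusted p = 1.13e-05, 8.32e-06 and 0.0016. AT5G46430 had log2 fold changes of -0.97 (AZD8055), -0.89 (KU63794) and -0.74 (TORIN1), with SE 0.09, 0.09 and 0.09 and edgeR adjusted p = 5.13e-06, 1.22e-05 and 0.000159. AT5G46430 overlaps AT5G06825 in the annotation.

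RPL34 showed the same kind of spread. AT1G69620, to which RefSeq gives the symbol RPL34 (chromosome 1, 26189775 to 26191404, plus strand), had 416, 386 and 376 CPM in mock replicates 1 to 3, 277, 255 and 220 under AZD8055, 248, 237 and 251 under KU63794 and 289, 283 and 273 under TORIN1. All inhibitor libraries were below mock. It had log2 fold changes of -0.65 (AZD8055), -0.68 (KU63794) and -0.48 (TORIN1), with SE 0.10, 0.10 and 0.10 and edgeR adjusted p = 0.000152, 0.000128 and 0.0029. Its paralogs AT1G26880 and AT3G28900 had log2 fold changes of -1.17 and -1.39 (AZD8055), -1.39 and -1.58 (KU63794) and -0.72 and -0.67 (TORIN1). All 3 RPL34 genes overlap another annotated gene, and the TORIN1 call of AT3G28900 was lost without TORIN1 replicate 3.

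RPL28 is a large-subunit protein that plants and animals have and budding yeast lacks. The RPL28 genes AT2G19730 and AT4G29410 had log2 fold changes of -1.29 and -1.33 (AZD8055), -1.28 and -1.41 (KU63794) and -0.82 and -0.97 (TORIN1). The RPL38 genes AT2G43460 and AT3G59540 had -1 and -1.30, -0.97 and -1.35, and -0.68 and -0.84 in the same order of inhibitors; in mice RPL38 is known for the translation of Hox transcripts. Of the 4 RPL35a genes, all fell with AZD8055 and KU63794 and 3 fell with TORIN1. The exception was AT1G07070 (chromosome 1, 2168561 to 2169957, plus strand), which had 17.8, 16 and 17.7 CPM in mock replicates 1 to 3, 6.93, 8.19 and 4.81 under AZD8055, 7.5, 4.94 and 8.7 under KU63794 and 11.8, 13.9 and 11.5 under TORIN1. TORIN1 libraries lay below mock by a small gap. The fit gave log2 fold changes of -1.37 (AZD8055), -1.29 (KU63794) and -0.47 (TORIN1), with SE 0.21, 0.20 and 0.20 and edgeR adjusted p = 0.000166, 0.000309 and 0.107. With only the TORIN1 and mock libraries in the edgeR fit the TORIN1 value passed (log2 fold change -0.47, adjusted p = 0.0108). Its paralogs AT1G41880, AT1G74270 and AT3G55750 had log2 fold changes of -1.25, -1.08 and -1.05 (AZD8055), -1.38, -1.22 and -1.24 (KU63794) and -0.74, -0.70 and -0.73 (TORIN1).

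The RPL27 and RPL27a genes held most of the values that missed the threshold. AT3G22230 (RPL27; chromosome 3, 7843536 to 7844597, minus strand) had 13.2, 13 and 12.6 CPM in mock replicates 1 to 3, 18.2, 5.13 and 6.01 under AZD8055, 6.71, 6.83 and 5.39 under KU63794 and 5.63, 6.57 and 5.87 under TORIN1. AT4G15000 (RPL27; chromosome 4, 8571816 to 8572681, plus strand) had 28.1, 27.6 and 25 CPM in mock replicates 1 to 3, 34.2, 10.3 and 10.5 under AZD8055, 2.97, 15.2 and 13.8 under KU63794 and 11.2, 12.7 and 12.6 under TORIN1. In both, AZD8055 replicate 1 stood above every mock library while the other 8 inhibitor libraries stood below, and in AT4G15000 KU63794 replicate 1 was the lowest of all. AT3G22230 had log2 fold changes of -0.40 (AZD8055), -1.04 (KU63794) and -1.11 (TORIN1), with SE 0.36, 0.37 and 0.38 and edgeR adjusted p = 0.451, 0.0614 and 0.0597. AT4G15000 had log2 fold changes of -0.55 (AZD8055), -1.34 (KU63794) and -1.15 (TORIN1), with SE 0.57, 0.59 and 0.59 and edgeR adjusted p = 0.516, 0.135 and 0.216. In the fit over all libraries neither was called with any inhibitor. Other fits did call them. For AT3G22230, DESeq2, limma voom and edgeR on only the 2 groups compared gave adjusted p = 0.0224, 0.0317 and 0.000351 with KU63794 and 0.0147, 0.0365 and 7.38e-05 with TORIN1. AT4G15000 was called by limma voom with KU63794 (adjusted p = 0.0254) and by edgeR on only the 2 groups with TORIN1 (1.56e-05). Without AZD8055 replicate 1 the log2 fold change with AZD8055 was -1.21 for AT3G22230 (edgeR adjusted p = 0.000117) and -1.38 for AT4G15000 (0.0711). Without AZD8055 replicate 2 or 3 it was -0.10 and -0.14 for AT3G22230 and -0.27 in each case for AT4G15000.

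RPL27AB (AT1G23290, RPL27a; chromosome 1, 8262925 to 8263739, plus strand) had 2.67, 4.47 and 3.65 CPM in mock replicates 1 to 3, 0.433, 2.86 and 0.859 under AZD8055, 2.97, 0.628 and 2.49 under KU63794 and 2.53, 1.36 and 0.762 under TORIN1. AZD8055 replicate 2 and KU63794 replicate 1 lay inside the mock range. This amounted to log2 fold changes of -1.39 (AZD8055), -0.81 (KU63794) and -1.22 (TORIN1), with SE 0.64, 0.61 and 0.64 and edgeR adjusted p = 0.125, 0.372 and 0.209. It was called with none of them in this fit, and with TORIN1 when edgeR was fitted to only the 2 groups (adjusted p = 0.0356). Without AZD8055 replicate 2 its log2 fold change was -2.44 (edgeR adjusted p = 0.0156), and without KU63794 replicate 2 it was -0.38 with KU63794. RPL27AB, also low in counts, overlaps AT1G23300 in the annotation. AT1G70600, the RPL27a gene with the higher level per kb (chromosome 1, 26620821 to 26621779, minus strand), had 79.7, 79.4 and 68.8 CPM in mock replicates 1 to 3, 61.8, 33.1 and 21.5 under AZD8055, 35.2, 30.5 and 32.7 under KU63794 and 42.4, 47.9 and 39.4 under TORIN1. AZD8055 replicate 1 again stood nearest to mock, though below it. Against mock it had log2 fold changes of -0.97 (AZD8055), -1.21 (KU63794) and -0.82 (TORIN1), with SE 0.29, 0.29 and 0.29 and edgeR adjusted p = 0.0272, 0.0113 and 0.072. It fell with AZD8055 and KU63794. Its AZD8055 call was lost without mock replicate 1 or 2 (edgeR adjusted p = 0.0712 and 0.0709) or AZD8055 replicate 2 (0.0827) and with only the 2 groups fitted (0.115). Without AZD8055 replicate 1 the log2 fold change was -1.49. Its TORIN1 value passed in DESeq2, limma voom and edgeR on only the 2 groups (adjusted p = 0.0101, 0.0332 and 4.94e-05).

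The genes of RPL26, RPL27 and RPL27a share a gene structure that the choice of members did not use. These 6 genes are the only members whose longest coding model has 1 exon; the other 32 tested members have 2 to 5. Per kb, the mock level of the 6 ran from 2.39 to 79.2 CPM, against 25.1 to 1430 CPM for the 32. Of the 6, 3 were called lower with AZD8055, 2 with KU63794 and 1 with TORIN1, against 32, 32 and 31 of the 32. With only TORIN1 and mock libraries in the fit, all 38 tested members were called. That fit called 14.7% of all genes tested lower, against 10.3% in the main fit. Median log2 fold changes were -1.12, -1.25 and -1.13 for the 6 and -1.27, -1.33 and -0.75 for the 32 with AZD8055, KU63794 and TORIN1. Over all genes, 1519 with 1 exon in every model had a median of 0.23 against the mock mean (log2, CPM + 1) in AZD8055 replicate 1, where 15961 genes with more exons had -0.02. This stricter rule leaves AT4G15000 out of the 1-exon genes, since another of its models has more exons. In the other AZD8055 and KU63794 libraries the median of the 1-exon genes was 0.02 to 0.07 and in the TORIN1 libraries -0.14 to -0.11. The part of this difference in the members' values was not tested.

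**Figure D4:**
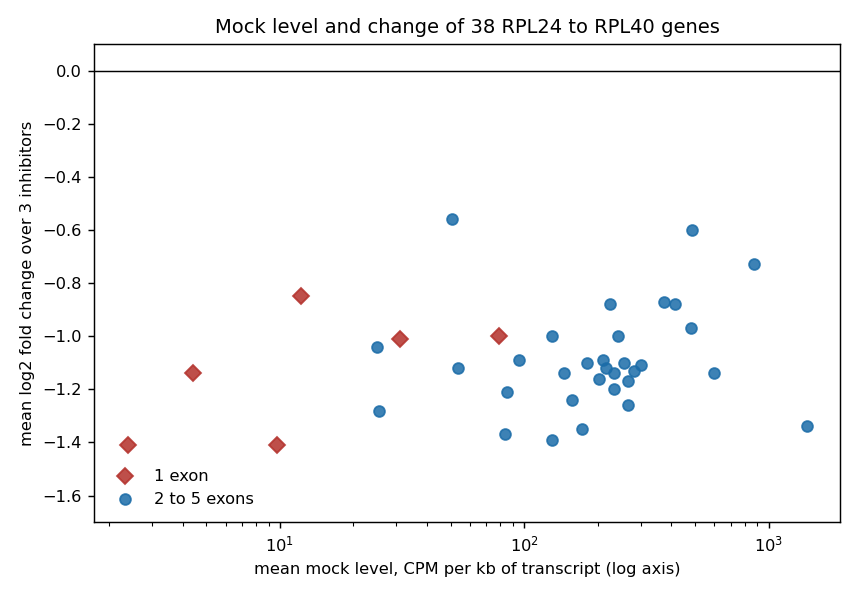
Mean log2 fold change over the 3 inhibitors (y axis) against mean mock level in CPM per kb of transcript (x axis, log) for the 38 tested genes, with diamonds for the 6 genes of 1 exon and circles for the 32 of 2 to 5. The 6 lie at 2.39 to 79.2 CPM per kb and the 32 at 25.1 to 1430.

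Paralogs were compared by the share that each holds in the summed level per kb of its family, which asks whether the balance within a family differed between mock and inhibitor libraries. Coding sequences of the 33 pairs of paralogs were 67.8 to 98.2% identical (median 82.0%). Of the 39 genes, 33 have no stretch of 50 bases in the longest coding transcript model (within an exon) that recurs elsewhere in the nuclear genome. The largest recurring share was 8.91%, in AT3G55750, followed by 5.75% in AT1G41880, so that the reads of these RPL35a genes are the least certain. The 28 shares in 14 families were compared between the 9 inhibitor libraries and the 3 mock libraries with a two-sided exact permutation test. None passed after Benjamini-Hochberg adjustment, 0 of 28 (0%), with 10 at an unadjusted exact p under 0.05. The smallest p that 220 arrangements allow is 0.00909, and 4 shares reached it (adjusted exact p = 0.0636 each).

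In these 4 shares (14.3% of the 28) mock and inhibitor libraries did not overlap. The largest difference was in RPL34. AT1G69620 held 62.1 ± 1.11% of the RPL34 level in mock (SD, n = 3), and under AZD8055, KU63794 and TORIN1 it held 71.4 ± 3.69%, 73.6 ± 1.28% and 65.7 ± 1.33%. The share ran from 61.1 to 63.3% in mock libraries and from 64.3 to 74.8% in inhibitor libraries, 8.13 points higher on average. AT1G26880 held 27 ± 1.09% in mock and 21.2 ± 2.56%, 19.5 ± 0.844% and 24.2 ± 0.549% under the same inhibitors in turn. The shares of a family sum to 100%, so these are not separate observations. The window of AT1G69620 holds 3 site II motifs and those of AT1G26880 and AT3G28900 neither motif. Other families differed: AT5G46430 (RPL32), AT3G55170 (RPL35) and UBQ1 (RPL40) held neither motif, and their mean shares were higher with inhibitors. AT4G18100 (RPL32, 1 site II) and AT2G36170 (RPL40, 2 site II and a telo box) had lower mean shares. Both RPL38 genes held 2 site II motifs. A relation of motifs to shares was not tested.

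In RPL32, AT4G18100 held 31.7 ± 0.516% in mock and 24 ± 2.67%, 21.1 ± 3.89% and 29.9 ± 1.13% with AZD8055, KU63794 and TORIN1, and AT5G46430 held the rest. In RPL35, AT3G55170 held 6.82 ± 0.416% in mock and 8.83 ± 1.44%, 9.72 ± 0.81% and 8 ± 0.273% in the same order. In RPL40, AT2G36170 held 23.5 ± 0.91% in mock and 18 ± 4.86%, 17.7 ± 0.788% and 18.9 ± 0.212% (unadjusted exact p = 0.0182, adjusted 0.0636). Its share in AZD8055 replicate 1, 23.5%, lay inside the mock range and the other 8 inhibitor libraries lay below it. In RPL38, AT2G43460 held 52.6 ± 0.64% in mock and 58.1 ± 3.12%, 59.2 ± 4.22% and 55.3 ± 1.85% (unadjusted exact p = 0.0182, adjusted 0.0636). None of these differences passes the correction. Over the 28 shares the median absolute difference was 1.9 points.

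**Figure D5:**
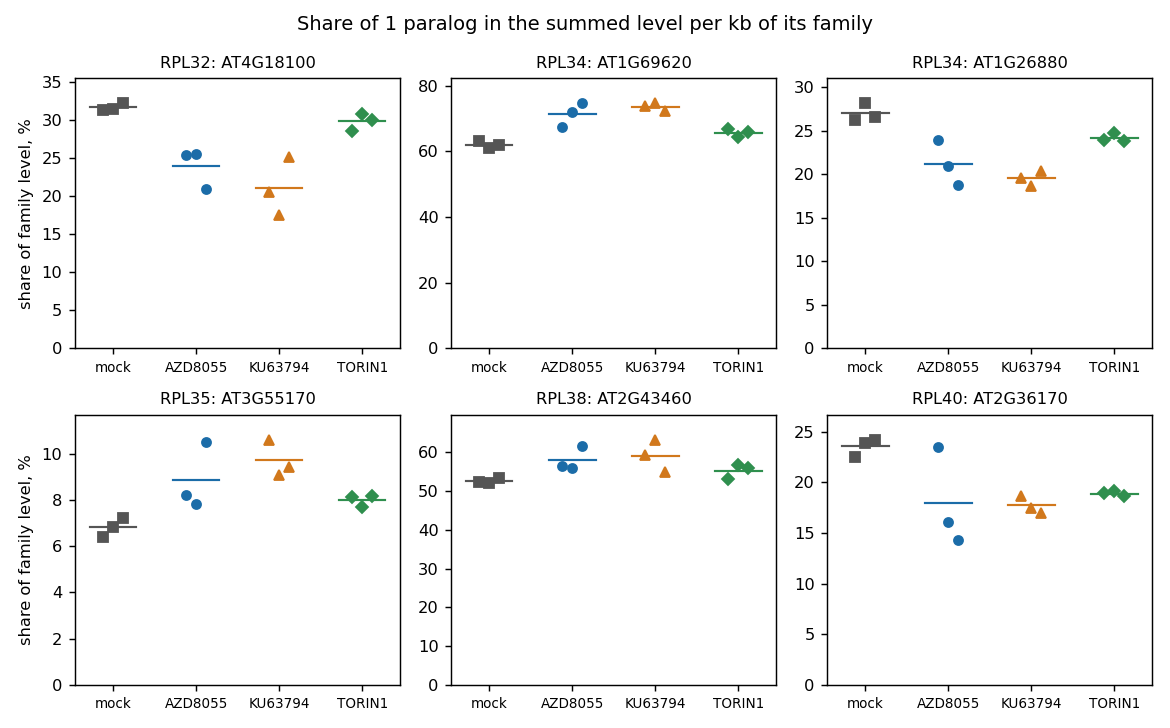
Share of 1 paralog in the summed level per kb of its family (y axis, percent) in each library, by group (x axis), for the 4 shares without overlap and for the RPL38 and RPL40 shares named in the text; lines are group means of 3 libraries. The inhibitor libraries of AT1G69620 lie at 64.3 to 74.8% and its mock libraries at 61.1 to 63.3%.

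Genes of the rest of the large subunit also fell. A list of 11 further genes between RPL24 and RPL40 adds RPL29, RPL36a and RPL39, which are outside the 16 families of the members. Of its 8 tested genes, 7, 8 and 6 fell with AZD8055, KU63794 and TORIN1, with medians of -1.06, -1.26 and -0.69. Of 64 tested genes among 68 of the other 60S families, 63, 63 and 59 fell, with medians of -1.23, -1.27 and -0.78. The largest changes there were those of AT4G10450 (RPL9; -2.13, -1.68 and -1.02) and AT2G20450 (RPL14; -1.69, -1.69 and -0.87). The smallest were those of the RPL6 genes AT1G74060 (-0.55, -0.76 and -0.42, the TORIN1 value not past the test) and AT1G74050 (-0.67, -0.78 and -0.42). Among the 11 further genes AT2G25210 (RPL39; -1.21, -1.41 and -0.89) changed most and AT3G02190 (RPL39; -0.40, -0.94 and -0.48) least, the latter called with KU63794 alone. The only tested gene there of a member family was AT3G18740 (RPL30, named after its values were seen). It had -1.18, -1.20 and -0.61, each past the test. No difference between these lists and the members was tested.

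Of 8 factors that mature the 60S subunit, 7, 7 and 6 fell, with medians of -1.08, -1.18 and -0.65. AT2G44860, an L24e-family protein listed here with the maturation factors, had log2 fold changes of -1.58, -1.49 and -0.99, and AT1G50920, a nucleolar GTP-binding protein, -1.15, -1.36 and -0.82. eIF6A (AT3G55620), of the family that keeps the unfinished subunit from joining the small subunit, had -0.83, -0.91 and -0.64, each past the test. LSG1-1 (AT2G27200), of a GTPase family known from yeast for late cytoplasmic steps, had 0.08, 0.36 and 0.18 and passed with no inhibitor. Its paralog AT1G08410, named after its values were seen, fell with all 3 (-0.82, -0.98 and -0.63, edgeR adjusted p = 0.000963, 0.000297 and 0.00891).

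The authors' deposited tables list 35 of the 39 members for AZD8055, 35 for KU63794 and 34 for TORIN1, all higher in mock than with the inhibitor. The authors' deposited tables list 8.15%, 7.23% and 5.53% of the 33602 genes as higher in mock. In the authors' deposited tables the members listed have median log2 fold changes, with the sign turned to inhibitor over mock, of -1.16, -1.19 and -0.73. The authors' deposited table of mean changes holds 4398 genes (13.1% of the 33602), of which 53.0% are negative (6.94% of the 33602), and 35 members, all negative. The sign of these means was kept as deposited, and members higher in mock are negative in it.

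Marker genes were summed to describe the tissue. Shoot markers reached 45000 to 72300 CPM over the libraries, and the 6 root markers 8.08 to 12 CPM in mock and 3.81 to 8.67 with inhibitors. The 7 markers of dividing cells summed to 99.5 to 109 CPM in mock, 65.8 to 105 with AZD8055, 80.9 to 106 with KU63794 and 82.5 to 102 with TORIN1. The 3 seed storage markers summed to 33.4 to 56.1 CPM in mock, 0 to 138 with AZD8055, 0.781 to 179 with KU63794 and 0.686 to 151 with TORIN1. Single markers also moved. The shoot marker CAB2 fell with TORIN1 (log2 fold change -0.97, edgeR adjusted p = 0.000295) and LHCA1 rose with AZD8055 (0.49, 0.0453). Of the dividing-cell markers PCNA1 fell with AZD8055 (-0.64, 0.0481). Of the root markers PER64 fell with AZD8055 and KU63794 (-0.98 and -0.90, 0.0177 and 0.0284) and CASP1 with TORIN1 (-0.81, 0.0387). No other marker value tested was called. The part of any of these in the members' values was not tested.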

How the data were processed

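Deposited counts per gene were used for 12 libraries. Per the submitters' processing notes, the authors used StringTie 1.3.3, DESeq2 1.18.1 and the genome TAIR10; the aligner, strandedness and the treatment of multi-mapped reads are not given in the sources used. The authors' deposited tables of single inhibitors hold mock-over-inhibitor log2 fold changes beside an adjusted p-value, with only genes past a threshold listed. The deposited table of mean changes has the opposite sign for the members, which are higher in mock and negative there. The 12 columns of a deposited normalized table were not used. Members and gene lists were chosen with earlier results of these data known. Family numbers follow plant usage; RefSeq text names the same family for 34 of 39 members, and for the others (RPL35 and AT1G70600) it uses the bacterial family name. Named genes were those 6 highest in mock, the 5 largest and 5 smallest mean changes, and every member not called with an inhibitor or not tested; for other lists at most 4 were eligible. Other members are given by family.

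The main test was that of edgeR 4.0.16 under R 4.3.3 (TMM scaling, default low-count filter, robust quasi-likelihood fit over all 12 libraries, two-sided, Benjamini-Hochberg adjustment over 17933 genes, threshold 0.05). SE is the size of the log2 fold change over the root of its F. CPM uses the library total after TMM adjustment, and depth sets a limit of 0.205 to 0.391 CPM for a count of 0. Alternatives were DESeq2 1.42.0, limma 3.58.1 voom, other scalings, no filter, pairs of groups, a replicate block and leaving out each library. Scripts were tested on simulated data. Paralog shares used SciPy 1.17.1. Gene positions, exons and promoters come from RefSeq on TAIR10.1 by gene ID, since the count files hold no coordinates; all 39 members matched. Figures used Python 3.11.15 and matplotlib 3.10.9.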

Additional observations from a re-analysis of the deposited data

How the results depend on the processing

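Under RLE scaling, upper-quartile scaling, TMM without 60S genes, DESeq2, limma voom, no low-count filter and fits of only the 2 groups compared, the number of members called lower was 33 to 35 with AZD8055, 34 to 37 with KU63794 and 30 to 38 with TORIN1, and leaving out 1 library gave 33 to 35, 34 and 25 to 29. In every one of these fits 38 members had negative log2 fold changes. Of all genes tested, the alternatives called 11.5 to 16.7% lower with AZD8055, 10.2 to 16.3% with KU63794 and 7.14 to 14.7% with TORIN1. Leaving out 1 library gave 12 to 15.1%, 10.5 to 11.9% and 6.07 to 8.56% of all genes in the same order. With the replicate number as a block the counts were 34, 35 and 32, beside 16.1%, 14.3% and 10% of all genes. Under the block the calls of AT5G67510 with AZD8055 (adjusted p = 0.0519) and of AT5G56710 with TORIN1 were lost and those of AT3G22230 with KU63794 (0.0495) and AT1G70600 with TORIN1 (0.0475) gained. Whether same-numbered libraries were handled together is not settled. Of 18 correlations between such libraries 2 were over 0.1 (-0.27 to 0.23), and weak correlations cannot exclude pairing. Single-gene values were recomputed only for the 18 tested genes named for their level, the size of their change or a missed call. Of these 756 values, 19 gained and 24 lost a call and 0 changed sign. The cause was not tested. Calls lost by the other members AT5G56710, AT2G36170, AT5G02610 and AT3G28900 are not in these counts. The count of shares past the threshold was 0 of 28 on a log2 ratio scale, without division by length and without each library in turn as well, but the smallest exact p (0.00909, and 0.0364 without a mock library or 0.0121 without an inhibitor library) leaves these tests little room to pass. AT5G67510 and RPL27AB held few counts, and AT4G15000, with 192 to 411 counts per mock library, had SE as wide. What set the spread was not tested.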
